A study of Mus musculus with 5 samples.

Results

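The colony-stimulating factors and their receptors were followed in macrophages from the mouse peritoneum, measured on 5 MG-U74Av2 arrays of Affymetrix. The members were 7 genes: the ligands Csf1, Csf2 and Csf3 and the receptor genes Csf1r, Csf2ra, Csf2rb and Csf3r. All probe sets whose platform annotation gives 1 of these symbols were taken, dim ones included, which gave 10 of the 12488 probe sets on the array, or 7 of 8251 named genes. Poly IC plus ethanol was represented by 2 pools of mice given 0.1 mg poly IC per mouse and an acute oral dose of 6 g ethanol per kg. Poly IC alone was represented by 2 pools, with a dose of 0.1 mg per mouse stated for the second pool only. The reference was 1 array of naive macrophages, whose label gives no sex, age or pool. All treated pools came from female C57Bl/6 x C3H F1 mice aged 12 weeks. No array of ethanol without poly IC was part of the samples used here. How many mice a pool held, how poly IC was given and when cells were harvested is not stated in the sources used here.

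Colony-stimulating factors are secreted proteins that keep myeloid cells alive and drive their growth and maturation. Csf1 (M-CSF) acts through the tyrosine kinase receptor Csf1r and maintains macrophages. Csf2 (GM-CSF) acts through a receptor made of its own alpha chain, Csf2ra, and the shared beta chain Csf2rb, which also serves the interleukin-3 and interleukin-5 receptors. Csf3 (G-CSF) drives the production and release of neutrophils through Csf3r, a receptor of neutrophils and their precursors that monocytes and macrophages also carry. Poly IC is a synthetic double-stranded RNA that is sensed as a sign of viral infection, and macrophages are a known source of colony-stimulating factors during such responses.

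The RefSeq promoter table (build GRCm38.p6) held an entry for 4 of the 7 members: Csf1, Csf2, Csf2ra and Csf3r. The 250 bases before the annotated start are shown for a ligand and a receptor whose signals were called higher after poly IC, Csf1 and Csf3r, and for a receptor whose signal was not called, Csf2ra. Capitals mark matches to GGG and CC separated by any 5 bases, on either strand, a loose form of the sites that NF-kB factors bind. The Csf1 window is chr3:107760470-107760719, minus strand, the Csf3r window is chr4:126024409-126024658, plus strand, and the Csf2ra window is chr19:61228419-61228668, minus strand.
Csf1: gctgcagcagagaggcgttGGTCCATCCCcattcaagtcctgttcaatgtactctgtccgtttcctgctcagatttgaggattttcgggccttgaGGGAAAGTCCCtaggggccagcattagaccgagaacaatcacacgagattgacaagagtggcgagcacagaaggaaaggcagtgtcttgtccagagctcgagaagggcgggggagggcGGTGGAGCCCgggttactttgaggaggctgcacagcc
Csf3r: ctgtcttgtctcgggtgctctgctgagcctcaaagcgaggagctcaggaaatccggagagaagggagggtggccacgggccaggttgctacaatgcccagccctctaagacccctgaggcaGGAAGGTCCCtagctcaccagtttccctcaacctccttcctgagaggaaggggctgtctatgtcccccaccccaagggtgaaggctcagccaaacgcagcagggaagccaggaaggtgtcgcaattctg
Csf2ra: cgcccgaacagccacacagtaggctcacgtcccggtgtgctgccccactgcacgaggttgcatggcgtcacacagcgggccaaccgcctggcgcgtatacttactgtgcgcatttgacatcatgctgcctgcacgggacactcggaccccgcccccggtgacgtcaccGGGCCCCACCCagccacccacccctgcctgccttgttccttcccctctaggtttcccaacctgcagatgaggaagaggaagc
The Csf1 window held 4 matches, 2 of them overlapping, the Csf3r window 1 and the Csf2ra window 2 overlapping ones. The closest match to the Csf1 start lay 37 to 28 bases before it, and the Csf3r match lay 129 to 120 bases before its start. Of 32841 windows of the same length in the table, 45.8% held at least 1 match. None of the 3 windows held the AP-1 motif TGANTCA, a pair of GAAA separated by any 2 bases (an ISRE core) or TTC and GAA separated by any 3 bases (a GAS motif), which 6.75%, 2.98% and 7.02% of all windows held. The motifs were chosen after the signals had been seen, and a match describes letters in a window, not a bound site.

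The deposited values were MAS 5.0 signals on a linear intensity scale, scaled by the authors to a target of 2500 on every array. Differences were tested on log2(signal + 250) over all 12422 probe sets that were not controls, and a probe set was called at a Benjamini-Hochberg adjusted p under 0.05 in limma. With 2 pools per treated group and 1 naive array, the tests rest on the spread between pools, not between animals. In limma that spread was shared with other probe sets, with 2 residual and 4.69 prior degrees of freedom. The limit for a detected signal was the brightest of 19 control probe sets for bacterial and yeast transcripts, between 299.6 and 443.8 by array. The labels do not list these transcripts as added, and their probe sets are called unspiked controls here. In the gene lists, a gene counted as measured if it had a probe set with 1 symbol, also where its signals lay below that limit. Of 17 resident macrophage markers measured, Lyz2, Cd68, Itgam and Adgre1 were bright on all 5 arrays and none of these 4 was called in any comparison, while 6 others were called in poly IC against naive macrophages and are given with the list. Adgre1, the F4/80 antigen, gave 28108.6 and 19410.5 in the poly IC plus ethanol pools, 30800.5 and 28944.6 in the poly IC pools and 24871.6 in naive macrophages. The second poly IC pool stood apart in its 18S ribosomal RNA signal, which was 66547.6, while the signals were 8224.7 and 19414.9 in the poly IC plus ethanol pools, 5113.3 in the first poly IC pool and 7277.1 in naive macrophages.

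Poly IC against naive macrophages shows which members went with exposure to double-stranded RNA. Of the 10 member probe sets, 4 were called higher and 0 lower, and they belonged to Csf1, Csf3 and Csf3r. Over all probe sets 13.5% were called in this comparison, 5.36% higher and 8.18% lower. Both measurable ligands rose more than 5-fold, the granulocyte receptor Csf3r rose by less, and neither Csf1r nor Csf2ra was called.

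Csf1, the macrophage growth factor, had signals of 10189.6 and 9099.9 in the poly IC pools, against 1308.7 in naive macrophages. Both poly IC pools lay far above the naive array. Csf1 rose 7.37-fold as a ratio of signals, with a log2 difference of 2.66 (SE 0.15, 95% interval 2.31 to 3.02, limma adjusted p = 9.82e-05). Csf3, the granulocyte growth factor, had signals of 8172.8 and 7858.3 in the poly IC pools, against 1438.3 in naive macrophages. Its pools differed from each other by a factor of 1.04 and from the naive array by a factor of 5.57. The log2 difference for Csf3 was 2.29 (SE 0.19, 95% interval 1.83 to 2.75, limma adjusted p = 0.000596). Without the second poly IC pool, the one with the high 18S signal, the Csf1 difference was 2.74 (adjusted p = 0.000881) and the Csf3 difference was 2.32 (adjusted p = 0.00472).

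Csf2, the ligand of the shared receptor, gave 30.9 and 25.0 in the poly IC plus ethanol pools, 104.7 and 63.2 in the poly IC pools and 52.6 in naive macrophages. All 5 signals lay below the brightest unspiked control of their array, so no fold is given. Its log2 difference was 0.14 for poly IC against naive (limma adjusted p = 0.750). Csf2 was the only member whose mean signal fell under the 40th percentile of all probe sets, at a signal of 513.

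**Figure D1:**
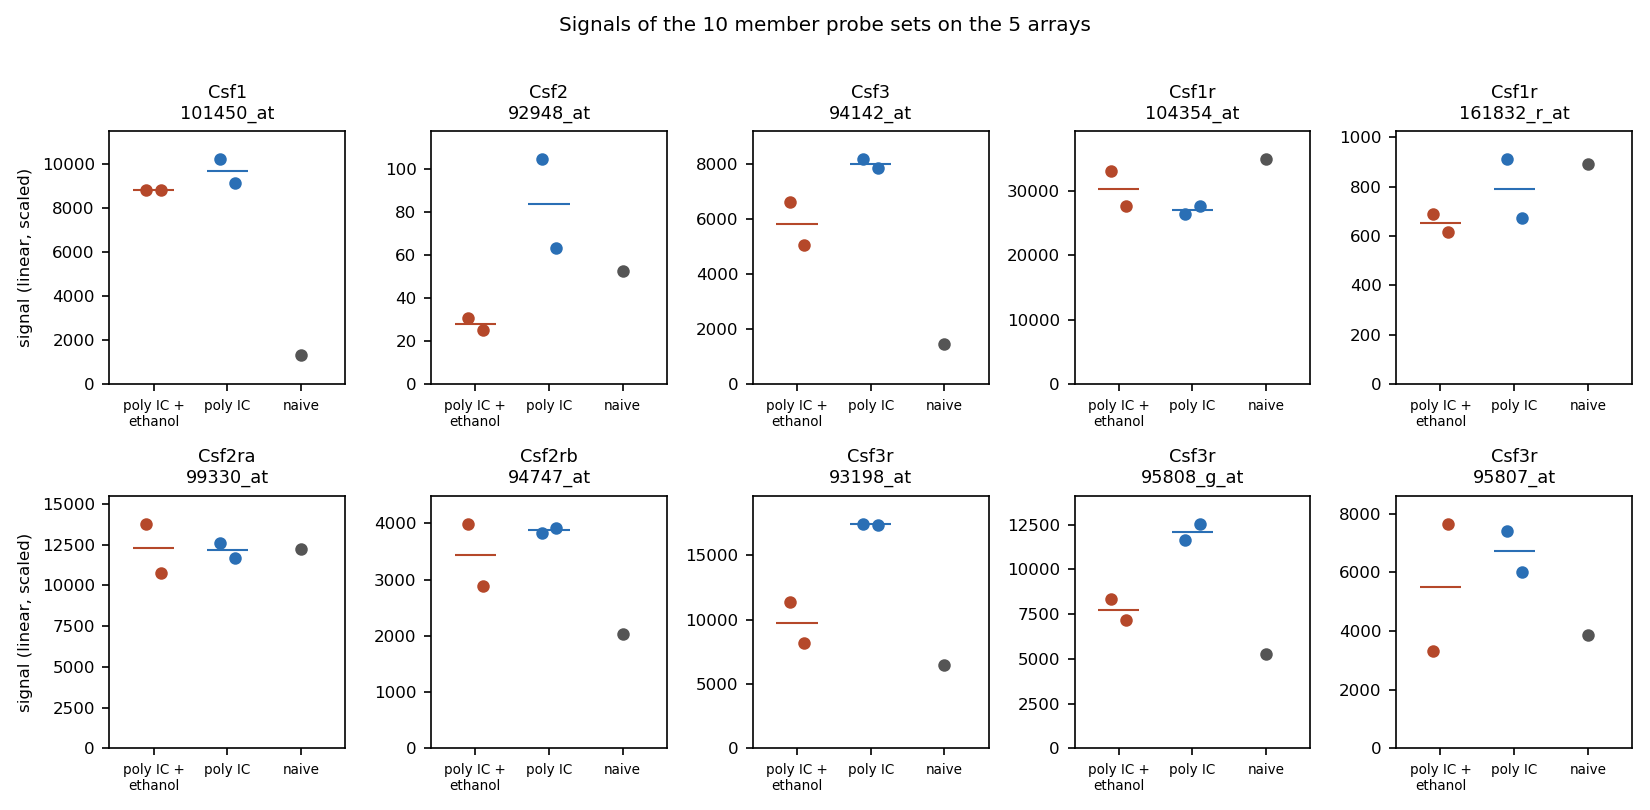
Signal (MAS 5.0, linear axis that starts at 0) of the 10 member probe sets, with 1 point per array and the poly IC plus ethanol, poly IC and naive groups set side by side and a line at the mean of each pair of pools. Csf1 and Csf3 lie above the naive array in all 4 treated pools, Csf3r by 2 of its 3 probe sets is higher in both poly IC pools than on any other array, and the Csf2 axis ends below the signals of the brightest unspiked controls.

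Among the receptors, Csf3r was measured by 3 probe sets. The probe set 93198_at gave 17439.5 and 17332.7 in the poly IC pools, against 6466.9 in naive macrophages. This is a 2.69-fold higher signal and a log2 difference of 1.39 (SE 0.20, 95% interval 0.92 to 1.87, limma adjusted p = 0.00561). The probe set 95808_g_at, whose suffix marks probes shared by similar transcripts, gave 11625.5 and 12558.8 in the poly IC pools, against 5294.2 in naive macrophages, a log2 difference of 1.15 (SE 0.15, adjusted p = 0.00416). The third, 95807_at, is annotated to the same transcript record as 95808_g_at. It gave 7413.9 and 6025.9 in the poly IC pools, against 3857.5 in naive macrophages, and was not called, with a log2 difference of 0.76 (SE 0.42, 95% interval -0.25 to 1.76, adjusted p = 0.330). All 3 probe sets were higher in both poly IC pools than on the naive array. With 2 pools and 1 naive array, such an order is not a test. Without the second poly IC pool the differences of 93198_at and 95808_g_at were 1.40 (adjusted p = 0.0277) and 1.10 (adjusted p = 0.0299).

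Csf2rb, the beta chain shared by the GM-CSF, interleukin-3 and interleukin-5 receptors, gave 3834.4 and 3924.3 in the poly IC pools, against 2034.6 in naive macrophages. The ratio of signals was 1.91, and the log2 difference of 0.85 (SE 0.23, 95% interval 0.31 to 1.40) had a limma adjusted p of 0.0539, short of the threshold. With probe sets under the 40th percentile left out, where 29.2% of 7453 probe sets were called, 11.1% higher and 18.2% lower, Csf2rb was called at an adjusted p of 0.0239. Its paralogue Csf2rb2, the beta chain specific to interleukin-3 in the mouse, gave 4992.1 and 4178.2 in the poly IC pools, against 2106.1 in naive macrophages. By this probe set, 103210_at, Csf2rb2 rose by a log2 difference of 1.03 (SE 0.18, adjusted p = 0.0130). A second Csf2rb2 probe set, 161544_r_at, lay below the controls on all 5 arrays. It gave 16.5 and 36.1 in the poly IC pools and 15.7 in naive macrophages. These paralogues are nearly identical in sequence, and how far their probes share transcripts was not tested.

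Csf1r, the receptor kinase for Csf1 and a marker of the macrophage lineage, gave 26447.8 and 27672.7 in the poly IC pools, against 34885.2 in naive macrophages by the bright probe set 104354_at. The log2 difference was -0.36 (SE 0.15, 95% interval -0.72 to -0.01) and was not called (limma adjusted p = 0.183). The dim probe set 161832_r_at, whose suffix marks relaxed rules of probe choice, gave 910.9 and 674.0 in the poly IC pools, against 890.9 in naive macrophages, a log2 difference of -0.14 (SE 0.37, adjusted p = 0.883). Csf2ra, the ligand-binding chain of the GM-CSF receptor, gave 12609.7 and 11703.3 in the poly IC pools, against 12230.5 in naive macrophages. Here the naive array lay between the pools, and the log2 difference of -0.01 had a 95% interval of -0.42 to 0.40 (adjusted p = 0.983).

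Poly IC plus ethanol against poly IC alone is the comparison named by the title of the series. None of the 10 member probe sets was called in it by limma, while 2.2% of all probe sets were, 1.1% higher and 1.09% lower. At an unadjusted p under 0.05, 3 member probe sets passed, 2 of Csf3r and 1 of Csf3, against 2008 of all 12422. Csf3r had the largest differences among the members: its signal was lower in both ethanol pools than in both poly IC pools on these probe sets. They were not called in the fit as reported and were called with a filter on dim signals or with an offset of 50. Most alternatives gave no call: 93198_at was called under 3 of 12 and 95808_g_at under 2 of 11. Csf1, Csf1r, Csf2ra and Csf2rb differed by less than 0.20 on the log2 scale by their brightest probe sets.

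By 93198_at, Csf3r gave 11353.9 and 8150.6 in the poly IC plus ethanol pools, against 17439.5 and 17332.7 in the poly IC pools. The groups did not overlap, and the mean was 9752 ± 2265 in the poly IC plus ethanol pools and 17386 ± 75.5 in the poly IC pools (SD, n = 2 each). The ratio of means was 0.561, and the log2 difference was -0.84 (SE 0.16, 95% interval -1.23 to -0.45, limma adjusted p = 0.0596). By 95808_g_at, Csf3r gave 8354.7 and 7167.8 in the poly IC plus ethanol pools, against 11625.5 and 12558.8 in the poly IC pools. These groups did not overlap either, and the log2 difference was -0.63 (SE 0.12, 95% interval -0.92 to -0.33, adjusted p = 0.0628). By 95807_at, Csf3r gave 3331.2 and 7658.2 in the poly IC plus ethanol pools, against 7413.9 and 6025.9 in the poly IC pools. Here the second ethanol pool was the highest of all, the groups overlapped, and the log2 difference was -0.38 (SE 0.34, 95% interval -1.20 to 0.44, adjusted p = 0.666). With probe sets under the 40th percentile left out, 93198_at was called (adjusted p = 0.0205) and so was 95808_g_at (adjusted p = 0.0357), in a fit that called 8.1% of 7453 probe sets, 4.33% higher and 3.77% lower. Without the second poly IC pool the differences of these 2 probe sets were -0.84 and -0.57, and neither was called.

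Csf3 gave 6603.5 and 5065.7 in the poly IC plus ethanol pools, against 8172.8 and 7858.3 in the poly IC pools. The groups did not overlap, and the mean was 5835 ± 1087 in the poly IC plus ethanol pools and 8016 ± 222 in the poly IC pools (SD, n = 2 each). The log2 difference of -0.45 (SE 0.16, 95% interval -0.83 to -0.08) was not called (limma adjusted p = 0.218), and it was -0.64 without the first and -0.27 without the second poly IC plus ethanol pool. Csf1 gave 8781.3 and 8799.9 in the poly IC plus ethanol pools, against 10189.6 and 9099.9 in the poly IC pools. Its log2 difference was -0.13 (SE 0.12, 95% interval -0.42 to 0.16, adjusted p = 0.688), so a fall by more than 0.42 lay outside the interval. The groups did not overlap for Csf1 either, nor for Csf2, which stayed below the controls in both groups. With 2 pools in each group, such an order is not a test, also for Csf3r above. Its share over all probe sets was not counted.

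**Figure D2:**
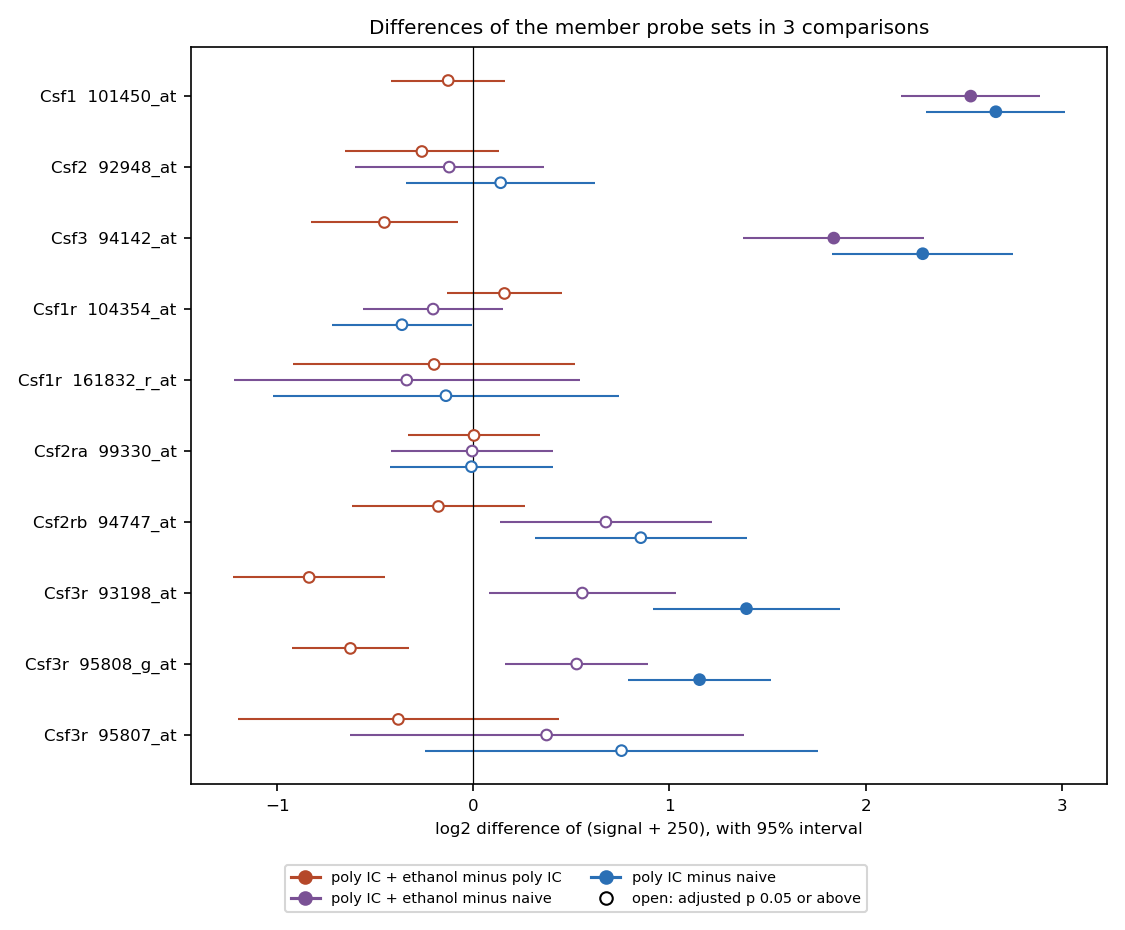
Log2 difference of each member probe set in the 3 comparisons, with 95% intervals from the limma fit on log2(signal + 250) and filled points for an adjusted p under 0.05. Csf1 and Csf3 lie far above 0 in both comparisons with naive macrophages, and the intervals of 2 Csf3r probe sets and of Csf3 lie below 0 for poly IC plus ethanol against poly IC.

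Csf1r gave 33103.6 and 27610.7 in the poly IC plus ethanol pools, against 26447.8 and 27672.7 in the poly IC pools, by 104354_at. The groups overlapped, with a log2 difference of 0.16 (SE 0.12, 95% interval -0.13 to 0.45, limma adjusted p = 0.605). The dim Csf1r probe set gave 690.6 and 614.5 in the poly IC plus ethanol pools, against 910.9 and 674.0 in the poly IC pools, with the opposite sign and an interval of -0.92 to 0.52. Csf2ra gave 13778.9 and 10761.8 in the poly IC plus ethanol pools, against 12609.7 and 11703.3 in the poly IC pools. The poly IC pools lay between the ethanol pools, and the interval of the Csf2ra difference was -0.33 to 0.34 (adjusted p = 0.997). Csf2rb gave 3994.9 and 2888.5 in the poly IC plus ethanol pools, against 3834.4 and 3924.3 in the poly IC pools, with overlapping groups and a log2 difference of -0.18 (SE 0.19, adjusted p = 0.721). Csf2rb2 gave 4170.8 and 4366.5 in the poly IC plus ethanol pools, against 4992.1 and 4178.2 in the poly IC pools, also overlapping (log2 difference -0.09, SE 0.15, adjusted p = 0.837).

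The ethanol pools differed more from each other than the poly IC pools for most members. The higher over the lower signal of the pair was 1.39 in the poly IC plus ethanol pools and 1.01 in the poly IC pools for Csf3r by 93198_at. It was 1.38 and 1.02 for Csf2rb, and 1.30 and 1.04 for Csf3. Csf1 went the other way, with 1.00 in the poly IC plus ethanol pools and 1.12 in the poly IC pools. So did the dim Csf1r probe set, with 1.12 and 1.35, and Csf2, below the controls, with 1.24 and 1.66. Over 7453 probe sets that passed the filter on dim signals, the median ratio was 1.20 in the poly IC plus ethanol pools and 1.15 in the poly IC pools.

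Poly IC plus ethanol against naive macrophages shares the naive array with the first comparison and the ethanol pools with the other. In it, 2 of the 10 member probe sets were called, both higher, beside 5.95% of all probe sets, 3.51% higher and 2.44% lower. They were the ligands Csf1 and Csf3. Csf1 gave 8781.3 and 8799.9 in the poly IC plus ethanol pools, against 1308.7 in naive macrophages, a 6.72-fold higher signal and a log2 difference of 2.54 (SE 0.15, limma adjusted p = 0.000175). Csf3 gave 6603.5 and 5065.7 in the poly IC plus ethanol pools, against 1438.3 in naive macrophages, a 4.06-fold higher signal and a log2 difference of 1.84 (SE 0.19, adjusted p = 0.00248). For Csf3r, the log2 difference was 0.56 by 93198_at (SE 0.20, 95% interval 0.08 to 1.03, adjusted p = 0.193), 0.53 by 95808_g_at (adjusted p = 0.117) and 0.37 by 95807_at (adjusted p = 0.704). Csf2rb had a log2 difference of 0.68 (SE 0.23, adjusted p = 0.167), and Csf2rb2 rose by 0.94 (SE 0.18, adjusted p = 0.0328). Csf1r by its bright probe set had a difference of -0.20 and Csf2ra one of -0.01 (adjusted p = 0.538 and 0.991).

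Set in order of signal, Csf3r by 93198_at was highest in the poly IC pools, then in the poly IC plus ethanol pools, then in naive macrophages. Only the outer pair of that order, poly IC against naive, passed the test in the fit over all probe sets. Csf1 and Csf3 followed the same order, and for both the treated groups passed against naive macrophages and did not pass against each other. Csf1r by its bright probe set ran in the opposite order and none of its neighbours passed.

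Markers of neutrophils, the main Csf3r-bearing cells of the body, moved along the same 3 groups. Of 25 neutrophil markers, 21 were measured, and 11 of them were called higher and 1 lower in poly IC against naive macrophages, with a median log2 difference of 1.64 beside -0.06 over all 8251 genes. In poly IC plus ethanol against poly IC, 0 were called higher and 5 lower, with a median of -0.71 beside 0.06 over all genes, of which 1.43% were called higher and 1.42% lower. The summed signal of the list was 75118 to 85686 in the poly IC plus ethanol pools, 146638 to 184843 in the poly IC pools and 31317 in naive macrophages. A few bright genes carried most of these sums. S100a8 alone gave 56817.8 and 40341.3 in the poly IC pools, and Prtn3 and Hp gave 11429.6 and 10290.1 in naive macrophages. No marker of the list was at 0, and Mpo and Ctsg, enzymes of the primary granules, were below the controls on all 5 arrays. The part of these cells in the Csf3r signal was not tested, and in bulk samples fewer cells of a type and less RNA per cell cannot be told apart.

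S100a8, a calcium-binding protein abundant in neutrophils, gave 10640.5 and 10208.6 in the poly IC plus ethanol pools, 56817.8 and 40341.3 in the poly IC pools and 564.4 in naive macrophages. It fell by 2.17 on the log2 scale with ethanol (SE 0.17, limma adjusted p = 0.00727) and was 5.89 higher in poly IC than in naive macrophages (adjusted p = 1.39e-05). Its partner S100a9 gave 5675.9 and 5345.5 in the poly IC plus ethanol pools, 31307.0 and 20508.2 in the poly IC pools and 295.1 in naive macrophages, below the controls there. S100a9 was at least 85.8-fold higher in poly IC than in naive macrophages (adjusted p = 3.17e-05) and fell by 2.15 on the log2 scale with ethanol (adjusted p = 0.00921). Fpr2, a receptor for formylated peptides on neutrophils and macrophages, gave 22149.7 and 18312.2 in the poly IC plus ethanol pools, 23371.7 and 24524.3 in the poly IC pools and 1768.9 in naive macrophages. Fpr2 rose by 3.58 with poly IC (adjusted p = 2.8e-05) and was not called between the treated groups (log2 difference -0.25, adjusted p = 0.410). Prtn3, a granule protease, was named after its values were seen as the marker that fell. It gave 6689.7 and 4998.2 in the poly IC plus ethanol pools, 3915.7 and 3579.1 in the poly IC pools and 11429.6 in naive macrophages. Its log2 difference was -1.55 in poly IC against naive (limma adjusted p = 0.00386) and 0.60 with ethanol against poly IC (adjusted p = 0.134). Calls of the list lower with ethanol numbered 0 without either ethanol pool, 2 without the first poly IC pool and 1 without the second.

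B cell markers moved the other way. Of 15 measured, 0 were called higher and 9 lower in poly IC against naive macrophages, and 3 were called higher and 0 lower in poly IC plus ethanol against poly IC. The shares over all genes were 6.37% higher and 9.93% lower in the first of these comparisons and 1.43% higher and 1.42% lower in the other, and the list medians were -0.96 and 0.45. Their summed signal was 248195 to 264884 in the poly IC plus ethanol pools, 181824 to 199732 in the poly IC pools and 400693 in naive macrophages. The resident macrophage list, 17 genes measured, had 0 called higher and 1 lower with ethanol against poly IC, and 3 higher and 3 lower with poly IC against naive. The 3 higher were Fcgr1, Cd14 and Msr1, with log2 differences of 3.06, 1.53 and 1.01, and the 3 lower were Gata6, Tgfb2 and Lgals3, with -2.23, -2.10 and -0.61 (limma adjusted p between 0.000238 for Fcgr1 and 0.0321 for Lgals3); of these 6, Msr1, Gata6 and Lgals3 were named after their values were seen. Gata6, the factor that marks resident peritoneal macrophages, gave 1851.2 and 2187.9 in the poly IC plus ethanol pools, 1169.4 and 1531.3 in the poly IC pools and 7217.7 in naive macrophages. The summed signal of the macrophage list was 445387 to 480246 in the poly IC plus ethanol pools, 462759 to 519655 in the poly IC pools and 389014 in naive macrophages. The other lists gave these calls with ethanol against poly IC: 0 higher and 1 lower of 5 inflammatory monocyte markers, 1 higher and 0 lower of 8 dendritic cell markers, 1 higher and 0 lower of 13 T and NK cell markers, 0 higher and 1 lower of 12 mast cell and eosinophil markers, and 0 of 15 fibroblast, mesothelial and endothelial markers by limma. The part of B cells and other cells in the member signals was not tested.

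**Figure D3:**
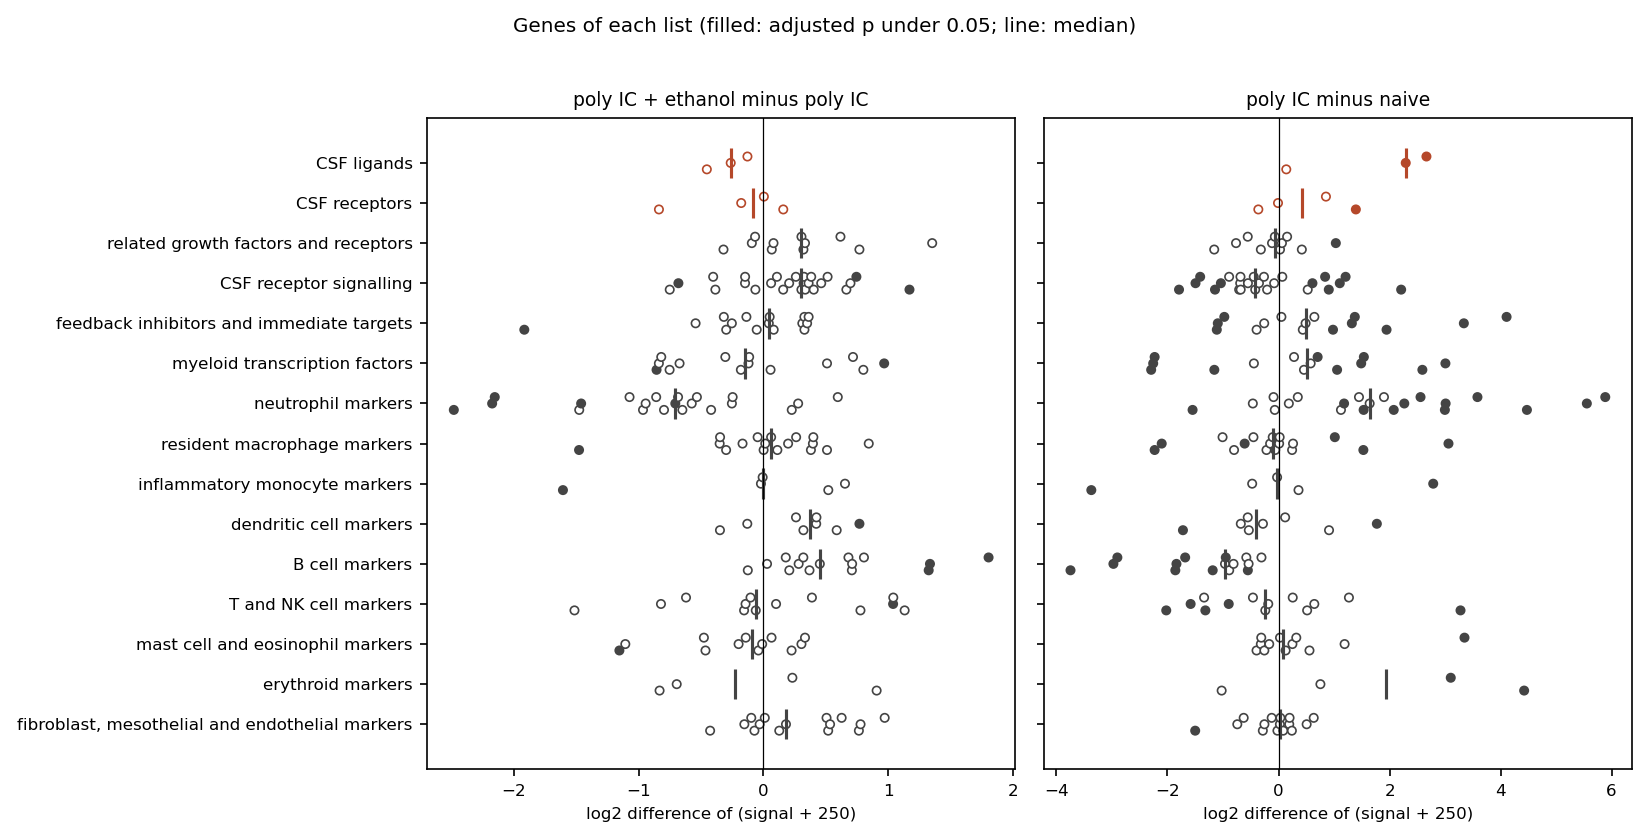
Log2 difference of every measured gene in the fixed lists, with poly IC plus ethanol minus poly IC in the left panel and poly IC minus naive in the right. Filled points passed the limma test at an adjusted p under 0.05 and lines mark list medians, which for neutrophil markers were -0.71 in the left panel and 1.64 in the right.

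Downstream of the receptors, cytokine-type receptors such as Csf3r and Csf2rb signal through Jak2 and the Stat3 and Stat5 factors, and Csf1r through its own kinase, adaptors and the Mapk and Pik3 pathways. Of 32 signalling genes 25 were measured, and of these Ptpn11 and Gab2 lay below the controls on all 5 arrays. In poly IC against naive macrophages 6 were called higher and 5 lower, with a median of -0.42 beside -0.06 over all genes, of which 6.37% were called higher and 9.93% lower. Jak2, the kinase bound to these receptors, gave 14386.5 and 15550.1 in the poly IC pools, against 3039.9 in naive macrophages, a log2 difference of 2.21 (SE 0.17, limma adjusted p = 0.000409). Stat5a gave 11623.4 and 11534.1 in the poly IC pools, against 5255.8 in naive macrophages, and rose by 1.10 (SE 0.13, adjusted p = 0.00271). Ptpn6, the phosphatase SHP-1 that limits signalling from these receptors, gave 3507.1 and 3101.4 in the poly IC pools, against 12040.7 in naive macrophages, and fell by 1.79 (SE 0.19, adjusted p = 0.00168). Jak2 and Stat5a were thus higher and Ptpn6 lower in both poly IC pools. Stat5b went the other way from Stat5a, with a log2 difference of -0.69 that was not called (adjusted p = 0.180). Also called higher were Map2k1, Fgr and Sos1, and also called lower were Plcg2, Inpp5d, Dok2 and Fes. Stat3, the main factor downstream of Csf3r, was higher by 1.21 (SE 0.15, adjusted p = 0.00340).

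With ethanol on top of poly IC, 2 of the 25 signalling genes were called higher and 1 lower, beside 1.43% and 1.42% of all genes. These calls depended on the setting: with eBayes without trend, 0 probe sets of any gene were called in this comparison. Map2k1, the kinase MEK1, gave 9094.8 and 9036.1 in the poly IC plus ethanol pools, against 14108.0 and 15286.5 in the poly IC pools, and fell by 0.68 (SE 0.11, limma adjusted p = 0.0358). Inpp5d, the phosphatase SHIP1 that limits Pik3 signalling in myeloid cells, gave 5291.6 and 6333.2 in the poly IC plus ethanol pools, against 3018.4 and 1954.8 in the poly IC pools. It rose by 1.17 (SE 0.21, adjusted p = 0.0489). Syk, a kinase of immune receptors, gave 33747.9 and 34131.1 in the poly IC plus ethanol pools, against 22158.7 and 18326.2 in the poly IC pools, and rose by 0.74 (SE 0.12, adjusted p = 0.0391). Jak2 gave 9852.0 and 7837.6 in the poly IC plus ethanol pools, below both poly IC pools, and its log2 difference of -0.75 was short of the threshold (adjusted p = 0.0534).

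Feedback inhibitors and immediate targets of cytokine receptors were called in both directions: of 15 measured, 6 were higher and 3 lower in poly IC against naive macrophages, with a median of 0.49 beside -0.06 over all genes, of which 6.37% were called higher and 9.93% lower. Socs3, the inhibitor that binds Csf3r and related receptors, gave 113911.4 and 111069.5 in the poly IC plus ethanol pools, 105562.6 and 106912.6 in the poly IC pools and 10281.9 in naive macrophages. Socs3 rose by 3.34 with poly IC (SE 0.13, limma adjusted p = 2.23e-05) and was not called between the treated groups (log2 difference 0.08, adjusted p = 0.789). Socs1, an inhibitor of Jak kinases, gave 24174.6 and 26257.8 in the poly IC plus ethanol pools, 29023.2 and 33188.3 in the poly IC pools and 1565.0 in naive macrophages. Socs1 rose by 4.11 with poly IC (SE 0.14, adjusted p = 1.39e-05), and its difference of -0.30 with ethanol was not called (adjusted p = 0.270). Cish, a Stat5 target that damps receptor signalling, gave 3875.1 and 5086.7 in the poly IC plus ethanol pools, 3700.2 and 3180.8 in the poly IC pools and 1170.4 in naive macrophages, and was called higher in both treated groups than in naive macrophages (adjusted p = 0.00675 and 0.00977). With ethanol against poly IC, 0 of the 15 were called higher and 1 lower, beside 1.43% and 1.42% of all genes. This call also depended on the setting, with 0 probe sets of any gene called by eBayes without trend. The gene called lower, Id1, an inhibitor of differentiation factors, gave 570.8 and 393.3 in the poly IC plus ethanol pools, against 2206.3 and 2808.7 in the poly IC pools, and fell by 1.92 (SE 0.27, adjusted p = 0.0255).

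**Figure D4:**
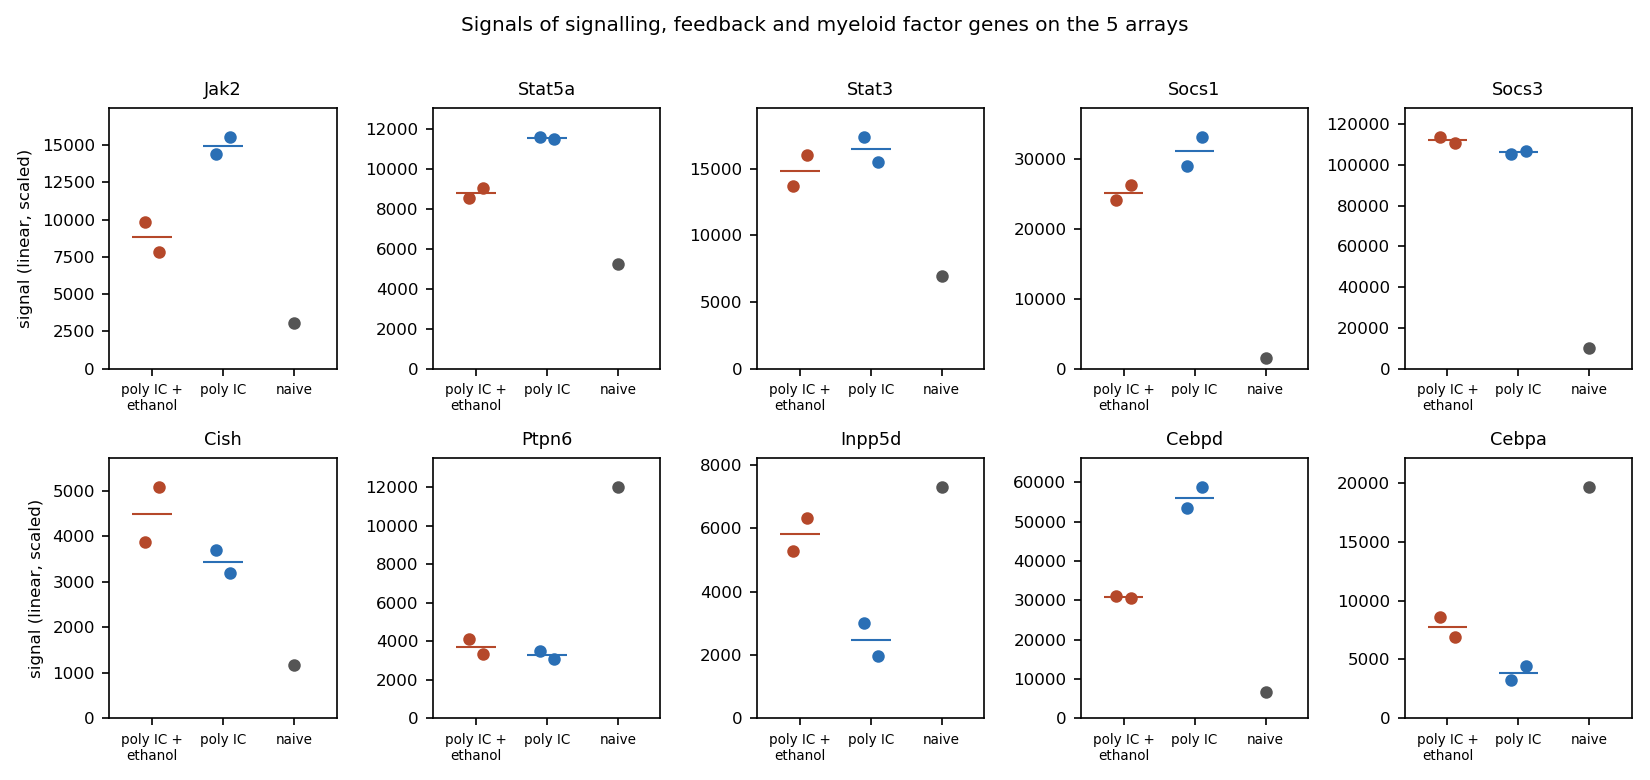
Signal (MAS 5.0, linear axis that starts at 0) of 10 signalling, feedback and transcription factor genes, with 1 point per array in the poly IC plus ethanol, poly IC and naive groups. Jak2, Stat5a, Stat3, Socs1, Socs3, Cish and Cebpd lie above the naive array in all 4 treated pools, and Ptpn6, Inpp5d and Cebpa lie below it.

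Transcription factors of the myeloid lineage include the C/EBP factors that control Csf3r and granulocyte genes. Of 16, 14 were measured, with 6 called higher and 4 lower in poly IC against naive macrophages, and 1 higher and 1 lower in poly IC plus ethanol against poly IC. Over all genes 6.37% were called higher and 9.93% lower in the first of these comparisons, and 1.43% higher and 1.42% lower in the other. In that other comparison, 0 probe sets of any gene were called with eBayes without trend. Cebpd gave 31031.4 and 30667.1 in the poly IC plus ethanol pools, 53340.3 and 58883.3 in the poly IC pools and 6758.5 in naive macrophages. Cebpd rose by 3.01 with poly IC (SE 0.13, limma adjusted p = 2.8e-05) and fell by 0.86 with ethanol (SE 0.11, adjusted p = 0.0186). Cebpa gave 8598.4 and 6882.6 in the poly IC plus ethanol pools, 3296.1 and 4406.4 in the poly IC pools and 19679.9 in naive macrophages. These are the opposite directions: Cebpa fell by 2.29 with poly IC (SE 0.22, adjusted p = 0.000989) and rose by 0.97 with ethanol (SE 0.18, adjusted p = 0.0494). Ets2, a factor activated downstream of Csf1r, gave 11889.3 and 12623.2 in the poly IC pools, against 1824.9 in naive macrophages, a rise of 2.59 (SE 0.20, adjusted p = 0.000384).

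Relatives of the members were mostly not called. Of 14 growth factors and receptors related to them, 11 were measured, and 1, Csf2rb2, was called higher in poly IC against naive macrophages. It was also the 1 gene called in poly IC plus ethanol against naive macrophages, and 0 of the 11 were called with ethanol against poly IC. Over all genes, 6.37% were called higher and 9.93% lower in poly IC against naive macrophages. The shares were 4.31% and 2.79% in poly IC plus ethanol against naive macrophages, and 1.43% and 1.42% with ethanol against poly IC. Kitl lay below the controls on all 5 arrays. Il3, Epor and Epo lay above them on 1 array each, and Il5 and Il5ra on 2 each. The median log2 difference of these 11 genes was 0.30 with ethanol against poly IC, beside 0.06 over all genes.

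The genes most like each member over the 5 arrays were found by the distance between log2(signal + 250) values, each gene centred on its own mean, among 5580 genes that passed the filter on dim signals. The nearest to Csf1 was Bcl3 (distance 0.19), followed by Rhou and Casp4. Bcl3 gave 9877.1 and 10383.7 in the poly IC plus ethanol pools, 11551.6 and 10670.5 in the poly IC pools and 1809.8 in naive macrophages. The nearest to Csf3 was Batf (distance 0.12), followed by Clic4 and Marchf5. Batf gave 8816.9 and 6771.5 in the poly IC plus ethanol pools, 10871.7 and 10815.9 in the poly IC pools and 2213.6 in naive macrophages. The nearest to Csf3r by its brightest probe set was Nifk (distance 0.14), which gave 2271.6 and 1447.6 in the poly IC plus ethanol pools, 3251.6 and 3619.8 in the poly IC pools and 1103.8 in naive macrophages, followed by Phc2 and Sele, the last below the brightest unspiked control on the naive array and in the second poly IC plus ethanol pool. For the other receptors the nearest genes were Capg, Fkbp1a and Aup1 for Csf1r, Xpot, Ppib and Itgb2 for Csf2ra, and Gna13, Cdv3 and Rab12 for Csf2rb. With 5 arrays in 3 groups, such a ranking describes these libraries only.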

How the data were processed

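RNA of mouse peritoneal macrophages was measured on 5 arrays, grouped by their titles. Per the labels, the authors summarised each probe set with Microarray Suite 5.0 and scaled the intensity values globally to a target of 2500. Data Mining Tool 3.0 is also named in the submitters' processing notes. Since all arrays were brought to one target, a change in total RNA per cell would not show. The number of arrays limits the precision.

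Probe sets were named by the platform annotation, with 10833 having 1 symbol, 396 several and 1193 none, and 10817 of the first found in the RefSeq table. Of 12488 probe sets, 66 controls were left out. Signals were fitted as log2(signal + 250) with 3 group means in limma 3.58.1 (lmFit, eBayes with trend) under R 4.3.3, two-sided, adjusted over 12422 probe sets. Figures used matplotlib 3.10.9 in Python 3.11.15. The single naive array was assumed to vary like the others. Lists used the brightest probe set of each gene. A fold against a group below the brightest of 19 unspiked controls is a lower bound.

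All member probe sets and Csf2rb2 were named, with up to 3 genes per list and comparison by the size of the moderated statistic and the 3 genes nearest to each member. Members and lists were chosen with earlier results of these data known. Alternatives were the offset, a filter on dim signals, 1 probe set per gene, quantile normalization, median centring, no trend, the replicate number as a block and leaving out each treated array.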

Additional observations from a re-analysis of the deposited data

How the results depend on the processing

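Of 325 member differences recomputed under the alternatives, 300 kept their direction and their side of the threshold, 14 passed only under the alternative, 1 passed only in the reported fit and 10 changed sign. Csf1 and Csf3 against naive macrophages were called in poly IC and in poly IC plus ethanol under all 11 alternatives. Csf2rb in poly IC against naive was called under 6 of 11. Csf3r by 93198_at in poly IC against naive lost its call with eBayes without trend (adjusted p = 0.0517). The Csf1r decrease in poly IC against naive was called only with quantile normalization (log2 difference -0.71, adjusted p = 0.0111). Csf3r by 95807_at in poly IC against naive was called only without the first poly IC plus ethanol pool (adjusted p = 0.0478), and Csf3r by 93198_at in poly IC plus ethanol against naive only without the second (adjusted p = 0.0444). With ethanol against poly IC, Csf3r by 93198_at ranged over the alternatives between -1.07 and -0.60, with adjusted p between 0.0134 and 0.280, and was called with an offset of 50 (adjusted p = 0.0383), with the filter and with 1 probe set per gene. Member probe sets called in that comparison numbered 2 with an offset of 50, 2 with the filter and 1 with the filter and 1 probe set per gene, beside 0 as reported. Called probe sets in it numbered 273 as reported, 367 with an offset of 50, 604 with the filter, 590 with the filter and 1 probe set per gene, 126 with an offset of 1000, 131 with median-centred arrays, 0 with eBayes without trend, and 0 to 30 with a treated array left out: 30 and 1 without the first and second poly IC pool and 0 without either poly IC plus ethanol pool. Median centring also moved the split, to 47 higher and 84 lower beside 137 higher and 136 lower as reported. With the replicate number as a block, 179 probe sets and 0 member probe sets were called; same-numbered pools did not deviate together (r = 0.0405 over 7453 probe sets), so the numbers were not taken to pair the pools. For poly IC against naive, 1682 probe sets were called as reported, 926 with eBayes without trend and 836 to 1691 with a treated array left out (969 and 836 without the first and second poly IC pool). For poly IC plus ethanol against naive, 739 were called as reported, 1118 with the filter, 259 with eBayes without trend and 481 to 523 with a treated array left out, lowest without the second poly IC plus ethanol pool. The sign changes were all in differences that were not called. With median centring, Csf2ra was -0.095 in ethanol against poly IC and 0.075 in poly IC against naive. With single treated arrays left out, Csf2ra lay between -0.17 and 0.18 in ethanol against poly IC, between -0.062 and 0.043 in poly IC against naive and between -0.18 and 0.17 in poly IC plus ethanol against naive. In the same way Csf2rb lay between -0.40 and 0.040 and Csf3r by 95807_at between -0.95 and 0.19 in ethanol against poly IC, Csf3r by 95807_at between -0.20 and 0.95 in poly IC plus ethanol against naive, and the dim Csf1r probe set between -0.30 and 0.025 in poly IC against naive. The causes were not tested. Counts of the lists under each alternative were added after seeing the data. Dim signals set the limit for Csf2, which no array measured above its controls.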

Other observations

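Of 4 erythroid genes measured, the globin genes Hba-a1 and Hbb-b2 were called higher in poly IC against naive macrophages and Slc4a1 and Alas2 were not called, beside 6.37% of all genes called higher. The list median was 1.93. Their summed signal was 20039.9 and 11279 in the poly IC plus ethanol pools, 18606 and 34217 in the poly IC pools and 1855 in naive macrophages. Hba-a1, an alpha globin, rose by 4.42 on the log2 scale with poly IC (SE 0.44, limma adjusted p = 0.00123). Among 12 mast cell and eosinophil markers, Hdc, the enzyme that makes histamine, rose by 3.35 with poly IC (adjusted p = 2.88e-05) and fell by 1.15 with ethanol on top of poly IC (adjusted p = 0.0111). The other 11 were not called in either comparison. The list medians were 0.08 and -0.09, beside -0.06 and 0.06 over all genes. Over all genes, 6.37% were called higher in the first of these comparisons and 1.42% lower in the other.

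The probe set 94748_g_at is annotated to both Csf2rb and Csf2rb2 and so was not counted as a member. It gave 3582.9 and 3016.0 in the poly IC plus ethanol pools, 3229.2 and 3179.3 in the poly IC pools and 1834.5 in naive macrophages. Its log2 difference in poly IC against naive was 0.73 (SE 0.20, limma adjusted p = 0.0577).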
